A study of Mus musculus with 5 samples.

Results

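The genes described here are 10 markers and regulators of enteroendocrine cells, the hormone-secreting cells of the gut lining. They were taken by name from the 32793 gene rows of the study and comprise the peptide hormone genes Gcg, Pyy, Insl5 and Cck, the secretory granule genes Chga and Chgb, the serotonin synthesis gene Tph1, and the transcription factor genes Neurod1, Pax6 and Insm1. All 10 had a row in the count table and in the TPM table, and 9 had enough counts to be tested. The data are bulk RNA-seq of 5 spheroid cultures from mouse colon, in which epithelial cells grow as small three-dimensional bodies. In 2 of them (titled RA by the submitters) the cells carried Notch1DD and Notch2DD, alleles of Notch1 and Notch2 whose products do not dimerize; this genotype is called NDD. The other 3 were wild type (WT). All 5 came from mice of a mixed strain background, mostly C57Bl6 and partly FVB. The age and sex of the mice, the number of mice behind each culture and the culture medium are not given in the sources used here, so p-values measure the spread between these libraries, which may be partly technical.

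Enteroendocrine cells are scattered single cells among absorptive and mucus-producing cells. In the colon, L cells make proglucagon (Gcg, the source of GLP-1), peptide YY (Pyy) and insulin-like peptide 5 (Insl5), whereas enterochromaffin cells make serotonin, for which TPH1 catalyses the rate-limiting step. The lineage arises from secretory progenitors that escape Notch signalling, switch on Neurog3 briefly and then express Neurod1, Insm1 and Pax6. The study's title names Notch dimerization and intestinal homeostasis, and the comparison of NDD with WT asks whether the amount of these transcripts differed with the genotype. In bulk RNA, fewer cells of a type and less RNA per cell cannot be told apart.

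The libraries held from 19192389 to 23064000 counts, WT replicate 1 being the smallest. The upper limit for a gene without counts is 3 counts (95% confidence), equal to 0.130 to 0.156 CPM (counts scaled to library size). This limit and all intervals on single counts cover counting error only. The 2 NDD libraries correlated with each other at a Spearman coefficient of 0.966 over 13501 tested genes, below every WT pair (0.984 to 0.987), and NDD replicate 1 correlated with WT replicate 1 at 0.985. The first principal component, with 56.25% of the variance, had both NDD libraries above 0 (6.24 and 58.1 for replicates 1 and 2) and the WT libraries below 0 (-12.3, -10.1 and -41.95), so that NDD replicate 1 lay nearer to WT replicates 1 and 2 than to NDD replicate 2. Of the labelled epithelial tissue, all 8 epithelial markers were present, with a summed level of 10501 to 12454.5 TPM, and markers of enteric neurons and glia, which also use chromogranins, were near 0. These 12 marker genes summed to 1.82 to 2.68 TPM, and Sox10 and Nos1 had a count of 0 in all libraries. The highest of them were Ret, at up to 1.09 TPM, and Uchl1, at up to 0.83 TPM.

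Transcripts of the 10 genes were present but scarce. Together they made up from 0.00717% (NDD replicate 1) to 0.0117% (WT replicate 1) of all counts. Levels of different genes were compared as TPM (a level scaled for transcript length and library size). In WT the order of mean TPM was Pyy (88.6), Insl5 (37.9), Gcg (23.9), Chgb (17.3), Chga (10.5), Insm1 (4.93), Cck (1.75), Neurod1 (1.73), Tph1 (1.31) and Pax6 (0.133). Pyy lay above Insl5, Insl5 above Gcg and Neurod1 above Tph1 in every WT library. The WT ranges of Insl5 and Gcg, and of Neurod1 and Tph1, still overlapped. Neurod1 and Tph1 were close in WT replicate 1 (2.12 and 2.07 TPM). The transcript lengths behind their TPM also differed between libraries, as described below, which limits the order of these 2 genes. The ranges of Gcg and Chgb, and of Cck and Neurod1, also overlapped, and the order within these pairs differed between WT libraries. In NDD the order was the same except that Neurod1 (2.15 TPM) and Cck (2.07 TPM) changed places, again with overlapping ranges. Among all tested genes, Pyy had a higher mean TPM than 86.6%, Gcg than 55.6% and Tph1 than 11.3%. Pyy and Insl5 ranked first and second by mean TPM in both genotypes. Gcg came next, but Chgb was above Gcg in NDD replicate 2 and in WT replicates 2 and 3. By contrast Cck, Neurod1, Tph1 and Pax6 stayed at or below 3.65 TPM in every library.

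**Figure D1:**
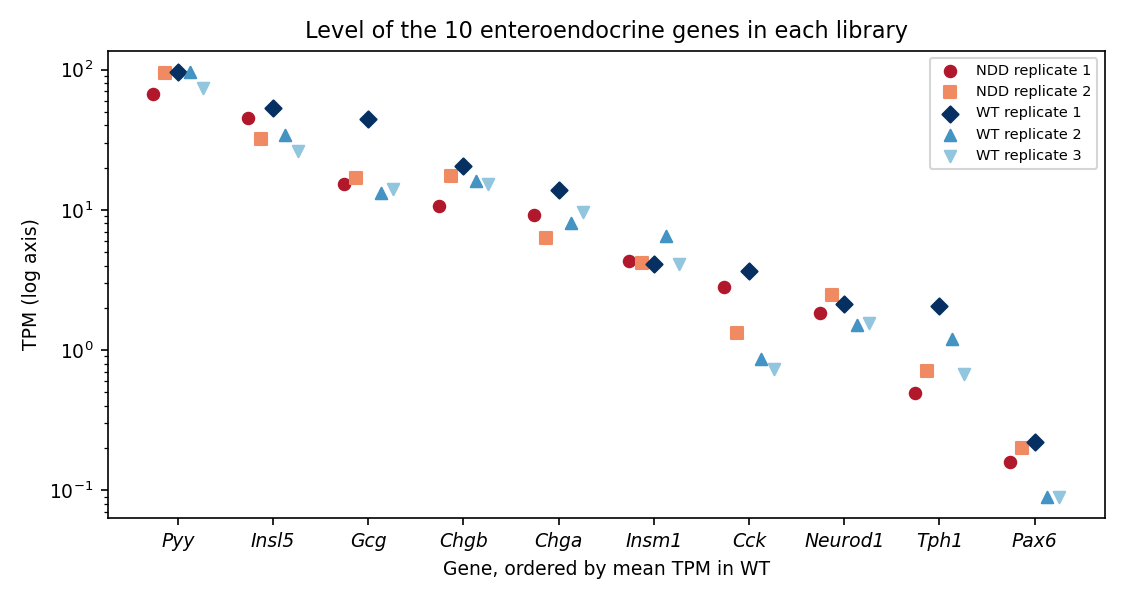
TPM (log axis) of the 10 enteroendocrine genes in each of the 5 libraries, with genes ordered by mean TPM in WT and 1 point per library. Pyy is highest in every library (66.7 to 96.3 TPM) and Pax6 lowest (0.09 to 0.22 TPM), and for Gcg the point of WT replicate 1 (44.4 TPM) stands above the other 4 (13.3 to 16.7 TPM).

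None of the 9 tested genes passed the test for a difference between the genotypes. By edgeR's quasi-likelihood test 0 of 9 reached an adjusted p under 0.05, against 12 of 13501 genes overall (0.0889%), of which 9 were higher (0.0667%) and 3 lower (0.0222%) in NDD. Likewise 0 had an unadjusted p under 0.05, against 11.2% overall. DESeq2, which called 2.64% of tested genes, and limma on log2(TPM + 1), which called 0.227%, also called 0 of the 9. The CPM values of NDD and WT overlapped in all 9, against 32.0% of tested genes in which they did not overlap (15.8% higher and 16.2% lower in NDD). The median log2 fold change of the 9 genes, NDD over WT, was -0.19, with 3 above 0 and 6 below, and that of all tested genes was -0.0047. The median of the members was -0.072 without WT replicate 1, -0.015 without WT replicate 2 and -0.32 without WT replicate 3. The summed CPM of the 10 genes was 78.6 ± 12.1 (SD, n = 2) for NDD and 91.3 ± 22.7 (SD, n = 3) for WT. Its values were 70.04 and 87.1 in NDD and 116, 85.8 and 71.8 in WT, so the genotypes overlapped on this sum and the highest and second lowest values were both WT. With 2 libraries against 3, an exact two-sided permutation test cannot give a p below 0.2, and for the 10 genes it gave from 0.4 to 1.

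The hormone genes are described first. Gene positions are from GENCODE M21 on GRCm38 (the mm10 build), and the files give genes by symbol only. Pyy (chr11:102106676-102107832) encodes peptide YY, which slows gut transit and reduces appetite. It was at 11.6 and 18.02 CPM in the NDD libraries and at 16.6, 17.4 and 12.7 CPM in the WT libraries. One library of each genotype was low and the others were close together. The means were 14.8 ± 4.52 CPM (SD, n = 2) for NDD and 15.6 ± 2.51 CPM (SD, n = 3) for WT, which differed by a log2 ratio of -0.07 (SE 0.25, adjusted p 0.899 by edgeR). The 95% interval of the difference ran from 0.619-fold to 1.46-fold, which makes Pyy the hormone gene with the narrowest bounds.

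Insl5 (chr4:103017872-103026842) encodes insulin-like peptide 5, a hormone of the relaxin family made by L cells of the colon. Its CPM was 13.3 and 10.1 in NDD and 15.7, 10.4 and 7.67 in WT, so that the highest and the lowest library were both WT. The log2 fold change was 0.06 (SE 0.33, adjusted p 0.938 by edgeR), with a 95% interval from 0.595-fold to 1.83-fold. Its receptor gene Rxfp4 had 2 counts in WT replicate 3 and 0 in the other 4 libraries.

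Gcg (chr2:62474530-62483650) encodes proglucagon, which L cells cut into GLP-1 and related peptides. The gene had a single high library. It was at 8.17 and 9.73 CPM in NDD and at 24.2, 7.47 and 7.63 CPM in WT. The value of WT replicate 1 rested on 468 counts (exact Poisson 95% interval 22.1 to 26.5 CPM), and the intervals of the other 4 libraries ended at or below 11.2 CPM. The NDD libraries lay between the WT libraries. The means were 8.95 ± 1.11 CPM (SD, n = 2) for NDD and 13.1 ± 9.62 CPM (SD, n = 3) for WT, and the log2 fold change of -0.55 (SE 0.57, adjusted p 0.656 by edgeR) had a 95% interval from 0.264-fold to 1.78-fold. Without WT replicate 1 the sign turned, to a log2 fold change of 0.25. The coefficient of variation over the WT libraries was 73.4%, above that of 99.04% of the 3223 tested genes with a WT mean CPM within 2-fold of it.

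Cck (chr9:121489824-121495694) encodes cholecystokinin, which is made mainly by I cells of the small intestine and stimulates bile and pancreatic enzyme release. It had few counts, with 19 and 9 in NDD and 21, 6 and 5 in WT. This is 0.830 and 0.421 CPM in NDD and 1.09, 0.264 and 0.214 CPM in WT. Only WT replicates 2 and 3 were near the limit of 3 counts, with exact Poisson 95% intervals from 2.20 and 1.62 counts. NDD replicate 1 and WT replicate 1 were the high libraries, 1 of each genotype. The log2 fold change was 0.29 (SE 0.83, adjusted p 0.875 by edgeR), and its 95% interval ran from 0.302-fold to 4.97-fold. The coefficient of variation of Cck over the WT libraries was 94.0%, against 30.6% from counting error alone.

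The start regions of Gcg, Pyy and Cck are shown because these hormone genes span a wide range of levels; those of Insl5 are described without being printed. RefSeq start-site sequences (GRCm38.p6) were found for 9 of the 10 genes, Insm1 being the exception. The lines give the 150 bases before a start, read 5′ to 3′ on the gene's strand. Capitals mark matches, on either strand, to the E-box CANNTG, the motif class bound by basic helix-loop-helix factors such as NEUROD1, and to the TATA box TATAAA. Among 32851 start-site sequences, 47.7% held the E-box and 7.57% held TATAAA in this window. The 2 motifs share no bases in the sequences shown.
Gcg, chr2:62483654-62483803, minus strand: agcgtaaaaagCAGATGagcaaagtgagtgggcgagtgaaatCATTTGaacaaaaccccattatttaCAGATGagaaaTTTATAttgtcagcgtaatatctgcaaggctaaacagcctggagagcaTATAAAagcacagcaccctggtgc
Pyy, chr11:102107833-102107982, minus strand: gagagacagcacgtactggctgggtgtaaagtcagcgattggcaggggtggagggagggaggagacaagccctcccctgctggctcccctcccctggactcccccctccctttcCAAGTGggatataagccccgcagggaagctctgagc
Cck, chr9:121495695-121495844, minus strand: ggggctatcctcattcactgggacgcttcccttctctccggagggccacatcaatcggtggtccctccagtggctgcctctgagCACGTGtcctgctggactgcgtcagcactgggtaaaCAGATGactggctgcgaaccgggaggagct
Gcg held 3 E-boxes, beginning at 139, 108 and 83 bases before the start, and 2 matches to TATAAA, at 72 (on the other strand) and 24 bases before it. Pyy held 1 E-box at 36 bases before the start shown (RefSeq has another start, from which it lies at 92 bases) and Cck 2, at 66 and 30 bases before. TATAAA was not found in these windows of Pyy and Cck. Insl5 has 2 starts in RefSeq, and each window of 150 bases held 1 E-box (at 72 and 143 bases before the start) and 1 match to TATAAA (at 88 and 49 bases before). These matches describe the sequence and say nothing of binding in these cultures.

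The granule genes Chga (chr12:102554969-102565028) and Chgb (chr2:132781278-132795079) encode chromogranins A and B, acidic proteins that pack hormones into dense-core granules. Chga was at 9.48 and 7.02 CPM in NDD and at 14.6, 8.79 and 9.99 CPM in WT. NDD replicate 1 lay among the WT libraries and NDD replicate 2 below them. The log2 fold change was -0.43 (SE 0.29, adjusted p 0.529 by edgeR, the lowest of the 9 genes), with a 95% interval from 0.452-fold to 1.22-fold. Chgb was at 16.5 and 29.1 CPM in NDD and at 31.9, 25.7 and 23.8 CPM in WT. NDD replicate 1 was the low library here, so the lower NDD library was not the same for the 2 chromogranins. The log2 fold change of Chgb was -0.25 (SE 0.27, adjusted p 0.673 by edgeR), with a 95% interval from 0.528-fold to 1.33-fold. The ratio of Chgb to Chga in TPM was 1.17 and 2.79 in NDD and 1.47, 1.97 and 1.60 in WT, so that the lowest and the highest ratio were the 2 NDD libraries.

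Tph1 was at 1.14 and 1.87 CPM in NDD, from 26 and 40 counts, and at 2.85, 2.28 and 1.2 CPM in WT, from 55, 52 and 28 counts. The lowest WT library lay between the NDD libraries. The log2 fold change was -0.48 (SE 0.50, adjusted p 0.656 by edgeR), with a 95% interval from 0.307-fold to 1.66-fold. In TPM the same libraries stood at 0.49 and 0.71 in NDD and at 2.07, 1.19 and 0.67 in WT, a wider gap than in CPM. On log2(TPM + 0.1) the log2 difference was -0.90 (limma adjusted p 0.533).

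The transcription factor genes come last. Neurod1, a basic helix-loop-helix factor that acts after Neurog3 in endocrine differentiation, was at 1.31 and 2.85 CPM in NDD and at 1.71, 1.63 and 1.33 CPM in WT. The 3 WT libraries were close together (coefficient of variation 12.8%, below the 17.2% that counting error alone would give), and NDD replicate 2 stood above them. Its log2 fold change of 0.42 (SE 0.45, adjusted p 0.664 by edgeR) had a 95% interval from 0.630-fold to 2.84-fold. Insm1 (chr2:146221921-146225020), a zinc finger repressor needed for endocrine differentiation, was at 7.43 and 7.72 CPM in NDD and at 7.14, 11.7 and 7.12 CPM in WT. All libraries but WT replicate 2 agreed within their counting intervals. The log2 fold change of Insm1 was -0.19 (SE 0.29, adjusted p 0.758 by edgeR), with a 95% interval from 0.534-fold to 1.43-fold.

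Pax6, a paired-box and homeobox factor that activates the glucagon gene in endocrine cells, did not pass the filter on low counts. It had 6 and 7 counts in NDD and 8, 3 and 3 counts in WT, which is 0.262 and 0.328 CPM and 0.414, 0.132 and 0.129 CPM. WT replicates 2 and 3 were thus at the limit that a count of 0 allows. In a fit without the filter its log2 fold change was 0.41 (SE 0.84, adjusted p 0.849 by edgeR), with bounds of 0.355-fold and 4.95-fold. The coefficient of variation of Pax6 over the WT libraries was 72.9%, against 46.3% from counting error alone.

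**Figure D2:**
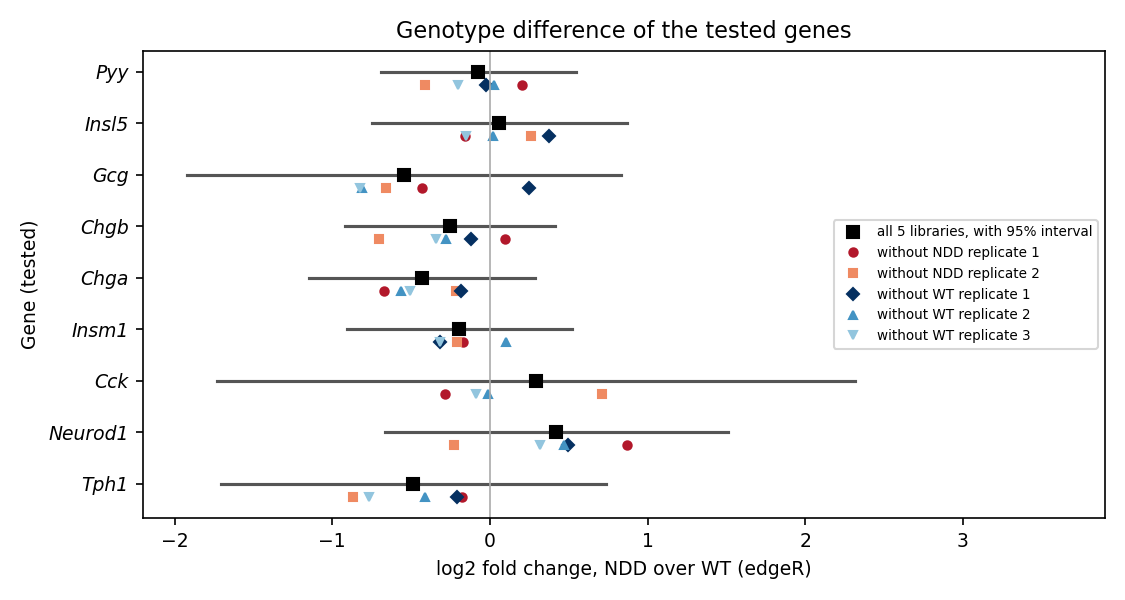
Log2 fold change of NDD over WT for the 9 tested genes (black squares, 5 libraries, lines: 95% interval of edgeR's fit) and with each library left out in turn (coloured symbols; Cck missed the filter without WT replicate 1). Every interval includes 0, and the symbols of Gcg lie below 0 except the one without WT replicate 1, at 0.25.

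Single libraries set the direction of most of these differences. For 7 of the 9 genes the sign of the log2 fold change turned when 1 library was left out, and only Chga (-0.67 to -0.19) and Tph1 (-0.87 to -0.17) stayed below 0 in all 5 such fits. Pyy was at 0.20 without NDD replicate 1 and 0.028 without WT replicate 2. Chgb was at 0.094 without NDD replicate 1 and Insm1 at 0.10 without WT replicate 2. Neurod1 was at -0.23 without NDD replicate 2, the library in which it was highest. Insl5 was at -0.16 without NDD replicate 1 and -0.15 without WT replicate 3. Cck was at -0.28 without NDD replicate 1, -0.015 without WT replicate 2 and -0.087 without WT replicate 3. None of the 9 genes was called in any of these fits; the lowest edgeR adjusted p was 0.238, for Neurod1 without NDD replicate 1, a fit in which the lone NDD library is assumed to vary like the WT libraries.

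Some libraries were highest or lowest for several of the 10 genes. How often each library was highest or lowest among all tested genes was not counted. WT replicate 1 held the highest CPM of 7 of the 10 genes (Gcg, Insl5, Cck, Chga, Chgb, Tph1 and Pax6) and the lowest of none, whereas NDD replicate 1 and WT replicate 3 each held the lowest CPM of 4. The sum over the 10 genes in WT replicate 1 was 116 CPM, and without Gcg it was 92.05 CPM, against 61.9 to 78.4 CPM in the other 4 libraries. That library was also the smallest. The 7 goblet markers, of the other main secretory cell type, summed to 1818 TPM in it, within the range of the others (1489 to 2295 TPM). Within that list the mucin gene Muc2 was highest (148 TPM) and the trefoil gene Tff3 lowest (678 TPM) in this library. The part of library size in the enteroendocrine values was not tested. Of the summed TPM of the 4 hormone genes, Cck included, Gcg made up 22.5% in WT replicate 1 and 9.19% to 12.3% in the other libraries. Insl5 made up 35.0% in NDD replicate 1 and 22.0% to 27.0% in the others. Pyy made up the largest share in every library, with 48.6% in WT replicate 1, 51.2% in NDD replicate 1 and 64.2% to 66.6% in the other 3. Over the WT libraries the coefficient of variation was 36.2% for Insl5 and 27.8% for Chga, above that of 91.2% and 84.2% of tested genes of like level. It was 16.1% for Pyy and 15.7% for Chgb, nearer the middle of such genes (69.6% and 77.6% were lower).

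For the rows named most like 2 of the members, likeness was the root mean square difference of mean-centred log2(CPM + 0.5) over the 5 libraries, among 13500 other genes. The closest to Pyy, the most abundant member, were Rdh1 (0.0435), Dusp23 (0.0523) and Vnn1 (0.0537). On this scale Pyy spanned 0.611, and 2846 genes lay within 0.25 of its profile. For Gcg, the tested member with the widest span on this scale (1.63; without the added 0.5, Cck spanned more, with a highest CPM 5.07 times its lowest against 3.24 times for Gcg), the 3 closest rows lay at 0.178, 0.217 and 0.221, and 5 genes lay within 0.25. Those 3 rows carry sequence-record names and no gene symbol.

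The estimated counts and TPM values allowed a look at transcript length. RSEM, named in the submitters' processing notes, weights each gene's length by the transcripts it assigns reads to, so the count per TPM of a gene, after scaling each library, follows the effective length of its transcripts. For 7 of the 10 genes (Pyy, Insl5, Gcg, Cck, Chga, Chgb and Insm1) this value moved by at most 1.03-fold between libraries. For Tph1 it was 1.26 and 1.33 in NDD and 0.736, 1 and 0.972 in WT, relative to WT replicate 2, a span of 1.81-fold, and the NDD libraries lay above all WT libraries. For Neurod1 it was 0.691 and 1.04 in NDD and 0.763, 1 and 0.819 in WT, with the genotypes overlapping. Pax6 also moved (1.32-fold), but its values are rounded at 3 to 8 counts. Among 6212 genes with at least 500 counts in every library, 150 moved by over 1.2-fold. The Tph1 values rest on 26 to 55 counts per library and were singled out after they were seen, and no test was made of them.

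GENCODE gives Tph1 8 transcripts at chr7:46644641-46672537 on the minus strand, 3 of them protein coding. The longest, of 4562 nucleotides in 11 exons, starts upstream of a coding transcript of 1762 nucleotides, also in 11 exons, whose start lies within the gene. The 150 bases before these starts are shown because Tph1 had the widest span of count per TPM among the 10 genes. Neither window holds a match to CANNTG or TATAAA.
Tph1, upstream start, chr7:46672538-46672687, minus strand: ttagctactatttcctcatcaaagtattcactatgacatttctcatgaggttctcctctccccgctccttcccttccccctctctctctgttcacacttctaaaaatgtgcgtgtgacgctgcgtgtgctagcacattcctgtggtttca
Tph1, inner start, chr7:46667378-46667527, minus strand: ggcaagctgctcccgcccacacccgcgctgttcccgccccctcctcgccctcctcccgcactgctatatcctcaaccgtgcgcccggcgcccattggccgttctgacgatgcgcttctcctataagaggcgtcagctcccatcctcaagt
GENCODE gives Neurod1 (chr2:79452521-79456751) 1 transcript of 2729 nucleotides. It shares 201 exonic bases with Cerkl on the same strand and 154 with Gm26755 on the other. Cerkl had 2 counts in WT replicate 1 and 0 in the others. Which annotation the authors used is not given in the sources used here. Pax6 (chr2:105668900-105697364) overlaps the antisense gene Pax6os1, which shares none of its exonic bases and had 0 counts in all libraries. Of the 10 genes, 5 lie on chromosome 2.

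**Figure D3:**
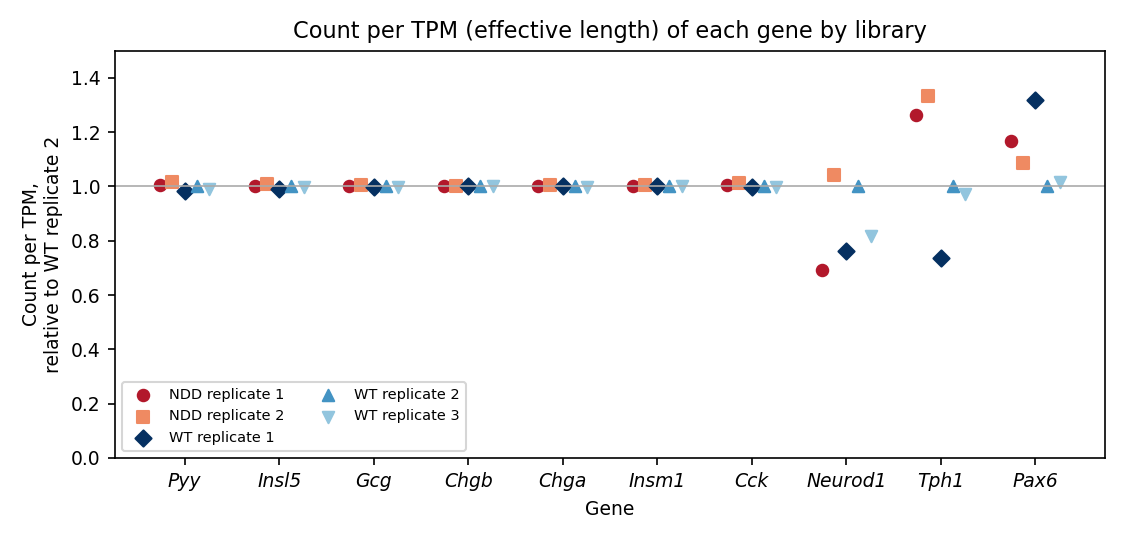
Count per TPM of each of the 10 genes by library, scaled per library and set to 1 in WT replicate 2 (vertical axis from 0). Most genes stay at 1; Tph1 runs from 0.736 in WT replicate 1 to 1.33 in NDD replicate 2, and Neurod1 from 0.691 to 1.04.

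Other genes with a part in enteroendocrine cells were read from 6 lists (101 genes), which were chosen with earlier results of these data known. The lists are not confined to genes particular to these cells. Maoa was at 348 to 880 CPM and Hnf4a at 767 to 1177 CPM, against 11.6 to 18.02 CPM for Pyy. Counts over the lists are therefore not counts of enteroendocrine genes alone. Of the 61 that were tested, 0 passed edgeR's test after adjustment, 15 had an unadjusted p under 0.05 (24.6%, against 11.2% of tested genes), and 35 had a log2 fold change above 0. DESeq2 called 5 of the 61, against 357 of 13501 tested genes (2.64%): Guca2a, Pam, Maoa and Ffar2 higher in NDD, and Id2 lower. The genotypes did not overlap in 21 of the 61 (34.4%, against 32.0% of tested genes), 13 higher and 8 lower in NDD.

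Of 14 other hormone genes, 7 were tested and 4 (Gip, Npy, Penk and Ucn3) had a count of 0 in all libraries; the list's median log2 fold change was 0.80, and it was 0.17 without NDD replicate 2 and 0.54 without WT replicate 3. Its most abundant members are not classical enteroendocrine hormones: Guca2a and Guca2b encode guanylin and uroguanylin, peptides that surface epithelial cells release to drive fluid secretion. Guca2a was at 153.4 and 153 CPM in NDD and at 73.2, 39.1 and 18.7 CPM in WT, without overlap, and its log2 fold change was 1.81 (SE 0.50, adjusted p 0.37 by edgeR). Guca2b was at 38.6 ± 9.83 CPM (SD, n = 2) for NDD and 22.1 ± 10.03 CPM (SD, n = 3) for WT, and its log2 fold change was 0.80 (SE 0.42, adjusted p 0.479 by edgeR). Nucb2, the gene of the precursor of nesfatin, had a fitted log2 change of -0.0024 (SE 0.23, adjusted p 0.997 by edgeR). The somatostatin gene Sst and the tachykinin gene Tac1, named after their values were seen, had log2 fold changes of 0.85 (SE 0.45, adjusted p 0.481 by edgeR) and 0.92 (SE 0.25, adjusted p 0.359 by edgeR).

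Of 20 genes of prohormone processing and granule release, 14 were tested, 9 with a log2 fold change above 0 (median 0.30, which was 0.16 without NDD replicate 2 and 0.15 without WT replicate 3). Pam, which amidates the end of peptide hormones such as PYY and CCK, was at 246.8 and 252.2 CPM in NDD and at 149, 150.02 and 113 CPM in WT, without overlap. Its log2 fold change was 0.86 (SE 0.16, adjusted p 0.186 by edgeR). The SNARE gene Vamp2 had a fitted log2 change of 0.67 (SE 0.27, adjusted p 0.439 by edgeR). The prohormone convertase gene Pcsk2 had 1 count in WT replicate 1 and 0 in the others.

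All 8 genes of serotonin handling were tested, 5 with a log2 fold change above 0 and 3 below. Their median was 0.49, which was -0.019 without NDD replicate 2 and 0.84 without WT replicate 1. Maoa, which degrades serotonin and is also used by absorptive cells, was at 790 ± 127 CPM (SD, n = 2) for NDD and 444 ± 87 CPM (SD, n = 3) for WT, which differed by a log2 ratio of 0.83 (SE 0.20, adjusted p 0.309 by edgeR). Ddc, the decarboxylase of the second step after TPH1, had a fitted log2 change of 0.89 (SE 0.27, adjusted p 0.403 by edgeR). Maob stood at 4.76 and 35.6 CPM in NDD and 1.76, 7.07 and 3.17 CPM in WT, with NDD replicate 2 alone above the WT range (log2 fold change 2.32, SE 0.88, adjusted p 0.437 by edgeR). The 3 below 0, named after their values were seen, were the vesicular monoamine transporter genes Slc18a1 (-0.25) and Slc18a2 (-0.27) and Fev (-0.18), a transcription factor gene of serotonin-producing cells.

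Of 24 transcription factors and Notch effectors of the secretory and endocrine lineages, 22 were tested, 10 with a log2 fold change above 0 and 12 below. The median was -0.05 and ran from -0.11 without NDD replicate 2 to 0.24 without NDD replicate 1, with -0.072 without WT replicate 1 and -0.019 without WT replicate 2. The 3 most abundant were Hnf4a, Cdx2 and Id1, whose log2 fold changes were 0.22, 0.21 and -0.016. Neurog3, the factor that commits a cell to the endocrine lineage (named after its values were seen), was at 6.95 and 4.91 CPM in NDD and at 6.47, 7.07 and 4.12 CPM in WT. Its log2 fold change was 0.013 (SE 0.33, adjusted p 0.987 by edgeR). Atoh1, the factor of all secretory cells, also named after its values were seen, was at 11.6 and 29.7 CPM in NDD and at 13.1, 16.5 and 7.12 CPM in WT, and its log2 fold change was 0.75 (SE 0.48, adjusted p 0.515 by edgeR). Id2, an inhibitor of basic helix-loop-helix factors that DESeq2 called, was at 3.19 and 6.36 CPM in NDD and at 8.38, 15.6 and 30.9 CPM in WT, and its log2 fold change was -1.94 (SE 0.62, adjusted p 0.413 by edgeR).

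Of a list of 15 nutrient sensors and related genes, 7 were tested and 4 (the receptor genes Ffar3, Casr and Gprc6a, and Cartpt, which encodes a secreted neuropeptide precursor and is no sensor) had a count of 0 in all libraries. The most abundant were Slc5a1, the sodium-glucose transporter, and Ffar4 and Ffar2, receptors for long-chain and short-chain fatty acids. Their log2 fold changes were 0.45 (SE 0.15), -0.47 (SE 0.17) and 1.51 (SE 0.32), with edgeR adjusted p-values of 0.413, 0.437 and 0.242. Ffar2 was at 4.89 and 7.58 CPM in NDD and at 2.48, 1.93 and 2.14 CPM in WT, without overlap.

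Receptors for enteroendocrine products were mostly below the filter on low counts. Of 20 receptor genes, 3 were tested and 4 (Gcgr, Htr2a, Htr7 and Ghsr) had a count of 0 in all libraries. The serotonin receptor gene Htr4 had a fitted log2 change of 0.36 (SE 0.38, adjusted p 0.663 by edgeR), and Npy1r, a receptor for peptide YY, one of -0.28 (SE 0.47, adjusted p 0.779 by edgeR). The somatostatin receptor gene Sstr1 was at 0.175 and 0.562 CPM in NDD and at 3.05, 2.20 and 0.600 CPM in WT. Its log2 fold change was -2.39 (SE 0.88, adjusted p 0.437 by edgeR), with WT replicate 3 close to the NDD libraries.

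**Figure D4:**
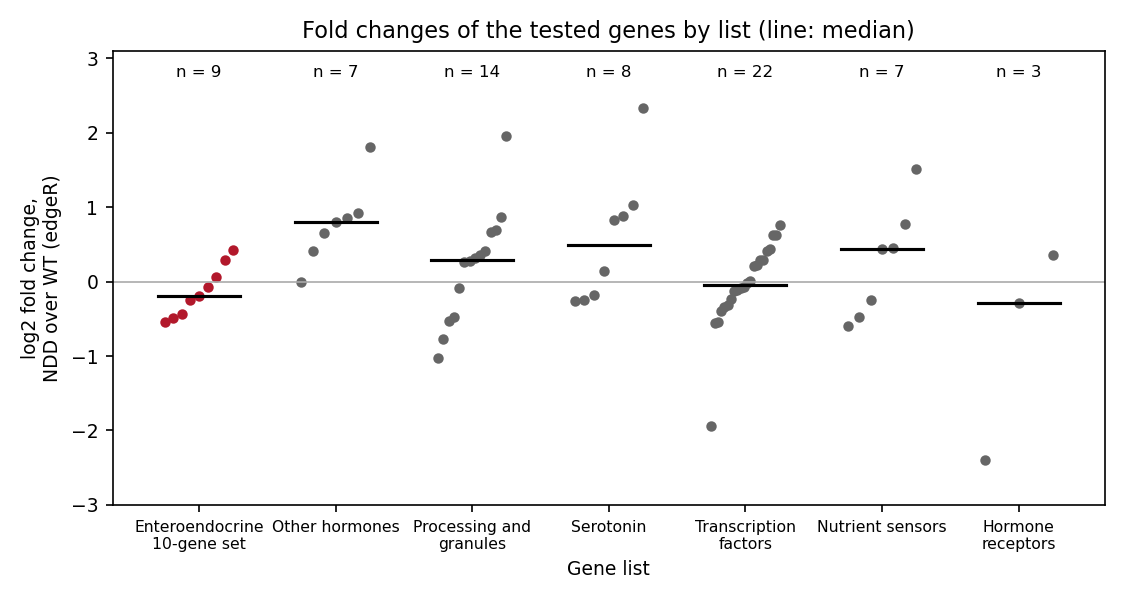
Log2 fold change of NDD over WT (edgeR) for each tested gene of the 10-gene enteroendocrine set (red) and of 6 wider lists (grey), 1 point per gene, with the median as a line. The enteroendocrine genes lie between -0.55 and 0.42, with a median of -0.19; the median of the other hormone genes is 0.80.

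Levels of markers of other epithelial cells are given beside these values. Of 7 colonocyte markers, 6 had no overlap between the genotypes, all higher in NDD (against 15.8% of tested genes), 5 had an unadjusted p under 0.05 (against 11.2%), and none was called (lowest edgeR adjusted p 0.101). The list's median log2 fold change was 1.89. Their summed level was 3532 to 5155 TPM in NDD and 2348 to 3369 TPM in WT, most of it from Car1 (2953 to 4847 TPM in NDD and 2311 to 3172 TPM in WT), the marker whose genotypes overlapped. The 7 goblet markers summed to 2161 to 2295 TPM in NDD and 1489 to 1874 TPM in WT. Without overlap, 2 of 7 were higher in NDD (against 15.8% of tested genes). All 7 had a log2 fold change above 0, against 6686 of 13501 tested genes. An unadjusted p under 0.05 was reached by 2 (against 11.2%), and none was called (lowest edgeR adjusted p 0.429). The 6 stem cell markers summed to 94.8 to 143 TPM in NDD and 130 to 168 TPM in WT, of which Rnf43 and Sox9 made up the larger part. Of these 6, 3 were lower in NDD without overlap (against 16.2% of tested genes), 3 had an unadjusted p under 0.05, and none was called (lowest edgeR adjusted p 0.119). Of the 6 stem cell markers, 2 had a log2 fold change above 0 (Sox9, 0.29, and Smoc2, 0.11) and 4 had one below, with a median of -0.41. The lowest were Lgr5 (-2.18) and Ascl2 (-1.56). These genes were named after their values were seen. The 10 enteroendocrine genes summed to 157 to 177 TPM in NDD and 146 to 240 TPM in WT. The part of the other cell types in the enteroendocrine values was not tested. Tuft cell markers summed to at most 3.85 TPM, with Il25 and Gnat3 at a count of 0 in all libraries. Of markers of other tissues, fibroblast genes summed to at most 2.21 TPM (Lum at 0) and immune genes to at most 6.78 TPM. Endothelial genes summed to at most 2.96 TPM (Kdr at 0) and small intestinal genes to at most 13.1 TPM (Apoa4 at 0). Most of each highest sum came from a single gene. In WT replicate 3 this was Ptgs1 for tuft cells (3.17 TPM), Cd68 for immune cells (5.88 TPM) and Lyz1 for small intestine (11.96 TPM). For fibroblasts it was Vim in WT replicate 1 (1.9 TPM), and for endothelium Vwf in NDD replicate 2 (2.86 TPM).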

How the data were processed

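The authors deposited expected counts per gene, as whole numbers without normalization, and TPM. Bowtie2, RSEM and mm10 are named in the submitters' processing notes; their versions and the gene annotation are not given in the sources used here. Per the labels' protocols, libraries came from a kit that keeps strand; the strand setting of the counting is not given in the sources used here. Each value column matched 1 sample title, and 0 were left over. Groups follow titles and genotype labels.

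Counts of all 5 libraries, already rounded, were tested over all genes with edgeR 4.0.16 (R 4.3.3): TMM factors, filterByExpr (13501 genes), robust quasi-likelihood fit, Benjamini-Hochberg adjustment, adjusted p under 0.05 called. SE was taken as |log2 fold change| / square root of F, and 95% intervals use the fit's t quantiles. CPM uses TMM-scaled totals; the limit for a count of 0 uses unscaled totals. Exact tests used log2(CPM + 0.5). Alternatives were RLE factors, no filter or at least 10 counts in every library, DESeq2 1.42.0, limma 3.58.1 on log2(TPM + 1) (genes at 1 TPM in at least 2 libraries, or no filter) and on log2(TPM + 0.1), the replicate number as a block, and leaving out each library. The code was tested on simulated data.

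The 10 genes and all lists were chosen with earlier results of these data known. Named besides the 10 genes are the 3 most abundant genes of each wider list (1 is not reported here), any called gene, and the 3 rows most like the most abundant member and the one with the widest span of log2(CPM + 0.5); others, among them Muc2, Tff3, Rnf43, Sox9, Pcsk2 and Rxfp4, were named after their values were seen. Replicate numbers are shared between groups, but no label ties them to a batch or litter, and deviations of same-numbered libraries correlated at -0.0095 and 0.353, so libraries were not paired.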

Additional observations from a re-analysis of the deposited data

How the results depend on the processing

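No enteroendocrine gene was called under any alternative in which it was tested: Pax6 was tested only in the 2 fits without a filter, and Cck was not tested with at least 10 counts in every library or without WT replicate 1. Of 115 log2 fold changes of the 9 tested genes under an alternative, 103 kept their direction and 12 turned. Apart from left-out libraries, 1 turned: Insl5 was -0.14 with the replicate block, against 0.06. Over the fits without 1 library, the range was -0.82 to 0.25 for Gcg, -0.41 to 0.20 for Pyy, -0.16 to 0.37 for Insl5, -0.28 to 0.71 for Cck, -0.70 to 0.094 for Chgb, -0.23 to 0.87 for Neurod1 and -0.32 to 0.10 for Insm1.

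The count of genes changed over the whole table, 12, was 58 without a filter, 4 with at least 10 counts in every library, 357 with DESeq2, 28 and 32 with limma on log2(TPM + 1) and log2(TPM + 0.1), and 33 with the replicate block. Leaving out a library gave from 0 to 1207: 0 by edgeR without WT replicate 1 (where 1211 genes had p under 0.05 before adjustment), 3 without WT replicate 3, 5 without WT replicate 2, 12 without NDD replicate 2 and 1207 without NDD replicate 1. In the last 2 the lone NDD library is assumed to vary like the WT libraries. The cause was not tested. Of the wider lists, edgeR called 0, DESeq2 called 5 (against 2.64% of tested genes), the replicate block gave 0, and leaving out any WT library gave 0. Without NDD replicate 1 the log2 fold changes of Ffar2, Foxa1, Foxa2 and Pam were 1.79, -0.72, 0.81 and 0.87. With all libraries they were 1.51, -0.54, 0.63 and 0.86. Foxa1 and Foxa2 were named after their values were seen. The list medians moved by more than the list's SD between WT libraries in 23 of 91 cases.

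In the order of levels, 5 of 10 genes kept their WT rank with the median TPM, and from 5 (without WT replicate 1) to 10 when a library was left out. In NDD, 8 kept their rank when either library was left out. On TPM scales the exact tests gave p-values from 0.4 to 1. At 19192389 to 23064000 counts per library, counting error alone gave coefficients of variation over WT of 30.6% for Cck and 46.3% for Pax6, against 4.13% to 17.2% for the other 8 genes.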
